A study of Mus musculus with 2 samples.

Results

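The 8 genes described here carry potassium, sodium, chloride or bicarbonate across cell membranes: Kcnj13, Kcnk5, Kcne4, Slc4a10, Slc4a4, Slc4a2, Slc12a2 and Atp1b1. They were found by their symbols among 32287 features, and all 8 were present in both libraries. The study measured RNA in single cells from the leptomeninges of mice aged 3 months, taken off the cerebral hemispheres. All mice carried the Pdgfra-H2BGFP reporter, in which Pdgfra, a gene of fibroblasts, drives a green protein in the nucleus, and both sexes were used. There was 1 untreated group with 2 libraries, R1 and R2, and whether separate animals gave them is not stated. Kept cells of R1 held 2102 counts of the sex-linked RNA Xist and those of R2 held 11. Differences between the libraries thus cannot be told apart from differences in sex makeup. Every comparison is therefore between cell classes of the same libraries (n = 2), and the p-values measure only the spread between these libraries, which may be technical.

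As background, the leptomeninges are the pia, which lies on the brain, and the arachnoid, whose outer barrier layer meets the dural border cells. Sheets of cells that move fluid usually run on the sodium-potassium pump, which keeps sodium low and potassium high inside the cell. Sodium-coupled carriers then bring in chloride or bicarbonate, anion exchangers swap the 2 anions, and potassium channels let the pumped potassium out again. The choroid plexus, which makes cerebrospinal fluid, is the best known tissue of this kind in the brain and uses several of these 8 genes.

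A captured transcript is counted by its UMI, a molecular tag. The deposited matrices gave 14586462 UMIs over 7276 barcodes in R1 and 12359040 UMIs over 6743 barcodes in R2. Filtering left 2988 and 3038 cells, with medians of 1643.5 and 1249 UMIs, where the labels give an aim of at most 5000 cells per sample. Classes were named from marker genes, and neither the 8 genes nor a list of other ion transport genes was used to form them. In R1 and R2 there were 183 and 115 pial and perivascular fibroblast-like cells (pial-like here), 75 and 73 inner arachnoid-like, 156 and 103 arachnoid barrier-like, 448 and 222 dural border-like, 324 and 313 endothelial-like and 54 and 54 mural-like cells. Levels are CPM, a gene's UMIs in a class scaled to 1000000 UMIs of that class and library. Droplet libraries hold free RNA, so the level in border macrophage-like cells (530 and 673 cells) is given as the background for genes they are not known to use.

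The markers set limits on these names. Of the arachnoid barrier list, Cdh1, Cldn11, Klf5 and Dpp4 were highest in arachnoid barrier-like cells, while Krt8 and Krt18 were at 0 there in both libraries. Inner arachnoid-like cells had 1203 and 1091 CPM of Ppp1r1a, and their name rests on this gene and Wnt6, since Angptl2 and Tbx18 were higher in pial-like cells. Mural-like cells had 6716 and 7196 CPM of Acta2 but also 902 and 127 CPM of the endothelial gene Cldn5. The choroid plexus epithelium list had 8 genes: Sostdc1 was at 0 in all 6 classes above, Folr1, Otx2 and Prlr had at most 2.40 CPM, and Ttr had between 3.93 and 54.3 CPM. Its summed level was 55.0 and 84.6 CPM in inner arachnoid-like and 1102 and 1909 CPM in dural border-like cells, where the gene Ecrg4 alone gave 1061 and 1862 CPM.

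The libraries also shared barcode sequences. Of these, 74 were kept in both libraries, 72 with the same class, and 62 of them were endothelial-like and 7 mural-like. For 71 of the 74 pairs a chi-square test over genes with at least 5 UMIs in the pair found no difference (p above 0.05). That test was not run between other barcodes of the same class. The median Pearson r of log counts was 0.755 within pairs and 0.531 between other barcodes of the same class. The pairs with a shared barcode may be the same cells in both libraries, so some endothelial-like and mural-like results are also given without them.

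The 8 genes fell into different places among the fibroblast-like layers. Among the classes as named, Kcnj13 had its highest level in inner arachnoid-like and its next in pial-like cells. Slc4a10, Atp1b1, Slc12a2, Kcnk5 and Kcne4 had their highest means in dural border-like cells, and all but Kcne4 came next in arachnoid barrier-like cells. That class was mixed, and the placements of Kcnj13, Slc4a10, Atp1b1 and Kcnk5 do not hold for 58 of its 259 cells. Only these 58 kept the arachnoid barrier name at a clustering resolution of 0.5, where 199 joined the dural border-like class. The high levels of Slc4a10, Atp1b1 and Kcnk5 in the class thus came from cells that also held the dural border gene Slc47a1. The 58 cells, described apart below, had 370 and 124 CPM of Kcnj13 and 176 and 99.6 CPM of Slc4a10. Slc4a4 was well above background in every layer, and Slc4a2 was low throughout with its higher levels in both outer layers. No member stood out in the endothelial-like class as a whole, although Slc4a4 was above background in a part of it, described below. Mural-like cells held Slc12a2 and Atp1b1, and their Kcne4 level rested on 5 UMIs in R1 and 2 in R2.

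**Figure D1:**
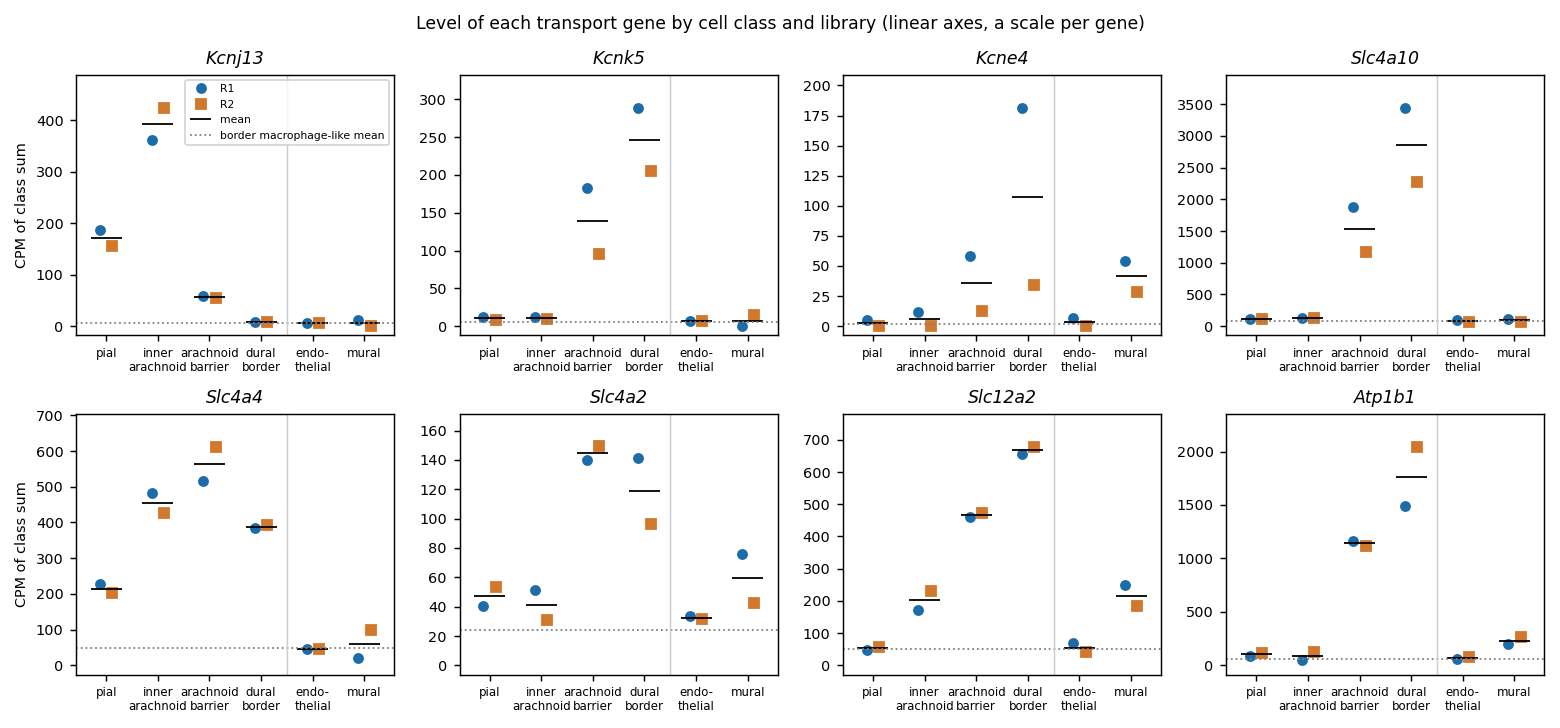
CPM of each gene in the summed counts of each cell class (y axis, linear, a scale per gene) by class (x axis); circles are R1, squares R2, bars their mean, and the dotted line the mean of border macrophage-like cells. Kcnj13 peaks in inner arachnoid-like cells at 362 and 423 CPM, whereas Slc4a10 peaks in dural border-like cells at 3439.7 and 2267 CPM.

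The stretches of genome in front of 4 members are shown because Kcnj13 had the opposite layer pattern to Kcnk5, Slc4a10 and Atp1b1. They come from the promoter table of RefSeq (build GRCm38.p6), from which entries of 7 of the 8 genes were read. The stretches run 5′ to 3′ on the strand of the gene and stop before the annotated gene. Capitals mark matches on either strand to GGGCGG (the GC box), CCTGCTG (the core of a Zic motif), TGTTTAC (a forkhead motif) or CACGTG (an E-box).
Kcnj13, chr1:87394730-87394979, minus strand: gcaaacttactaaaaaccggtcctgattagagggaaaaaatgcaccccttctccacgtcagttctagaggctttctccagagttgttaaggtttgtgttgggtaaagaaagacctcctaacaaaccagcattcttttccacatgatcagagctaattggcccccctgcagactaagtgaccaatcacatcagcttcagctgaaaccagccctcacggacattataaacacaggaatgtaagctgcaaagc
Slc4a10, chr2:62046265-62046461, plus strand: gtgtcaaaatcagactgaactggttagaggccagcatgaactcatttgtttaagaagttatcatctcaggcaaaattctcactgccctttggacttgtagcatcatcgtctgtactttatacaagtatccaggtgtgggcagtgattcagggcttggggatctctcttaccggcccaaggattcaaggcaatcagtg
Kcnk5, chr14:20181810-20182032, minus strand: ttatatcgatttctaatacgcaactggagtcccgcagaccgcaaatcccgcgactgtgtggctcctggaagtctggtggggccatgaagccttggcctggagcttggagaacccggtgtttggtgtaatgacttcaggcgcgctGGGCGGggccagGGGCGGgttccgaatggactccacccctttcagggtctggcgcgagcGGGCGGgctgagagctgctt
Atp1b1, chr1:164458356-164458605, minus strand: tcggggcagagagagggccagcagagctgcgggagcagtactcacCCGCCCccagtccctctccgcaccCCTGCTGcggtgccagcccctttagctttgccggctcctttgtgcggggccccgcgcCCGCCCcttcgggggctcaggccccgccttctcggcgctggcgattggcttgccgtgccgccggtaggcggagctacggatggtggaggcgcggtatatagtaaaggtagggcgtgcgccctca
The windows of Kcnk5 and Atp1b1 held 3 matches each, GC boxes and, in Atp1b1, also the Zic letters, and those of Kcnj13 and Slc4a10 held 0, which says only that these letters are not in these windows. The same motifs were in 32.7% (GC box), 8.44% (Zic), 3.17% (forkhead) and 6.02% (E-box) of 32851 windows of 250 bases in the table.

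Kcnj13 encodes an inward rectifier potassium channel that in choroid plexus and retinal pigment epithelium sits on the apical side together with the sodium-potassium pump. Its level was 362 and 423 CPM in inner arachnoid-like cells of R1 and R2, 187 and 156 CPM in pial-like cells and 58.4 and 54.0 CPM in arachnoid barrier-like cells. It was 8.31 and 7.53 CPM in dural border-like, 6.70 and 6.67 CPM in endothelial-like, and 10.9 and 0 CPM in mural-like cells, against a background of 3.61 and 9.90 CPM in border macrophage-like cells. The libraries of the first 4 classes did not overlap with those of the next class in this order, and the last 3 were all at about the background. After each cell was thinned to 1000 UMIs, 34.3% and 21.9% of inner arachnoid-like cells had a Kcnj13 UMI (exact 95% intervals 23.2 to 46.9% and 12.5 to 34.0%), against 0.265% and 1.44% of border macrophage-like cells. Kcnj13 lies within Gigyf2 on the opposite strand (chromosome 1, 87386363 to 87394729, mm10), and it is not given in the sources used here whether strand was used in counting. Gigyf2 itself had between 85.0 and 134 CPM over all layers and libraries.

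Kcnk5, a leak potassium channel that opens in alkaline surroundings and serves bicarbonate transport in the kidney, had the mirror pattern. It had 288 and 205 CPM in dural border-like cells and 183 and 95.5 CPM in arachnoid barrier-like cells. In inner arachnoid-like cells it had 11.8 and 8.91 CPM, in pial-like cells 11.98 and 8.23 CPM, in endothelial-like cells 6.70 and 6.67 CPM and in mural-like cells 0 and 14.1 CPM. Only the outer layers thus rose above the background of 8.67 and 3.30 CPM by more than the spread between libraries. The arachnoid barrier-like class was mixed in this gene. Its 58 Dpp4-rich cells, described below, held 1 Kcnk5 UMI in each library (17.6 and 24.9 CPM), against 211 and 110 CPM in its remaining cells. After thinning, 24.4% and 19.7% of dural border-like cells had a Kcnk5 UMI.

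Kcne4, a beta subunit that damps several voltage-gated potassium channels, had the fewest UMIs of the members, and its libraries stood far apart. In dural border-like cells it had 181 CPM in R1 and 33.9 CPM in R2, in arachnoid barrier-like cells 58.4 and 12.5 CPM, and in mural-like cells 54.3 and 28.2 CPM. It had 11.8 and 0 CPM in inner arachnoid-like, 6.70 and 0 CPM in endothelial-like and 4.79 and 0 CPM in pial-like cells. The level of R1 in dural border-like cells was 5.34 times that of R2, and of 3980 genes with at least 50 CPM there only 9, Kcne4 included, were as far apart or farther. Over all kept cells R1 held 279 Kcne4 UMIs and R2 held 36, so the values of R2 rest on few molecules. Those of mural-like cells rest on 5 UMIs in R1 and 2 in R2. The noncoding gene Gm29536 overlaps Kcne4 on the other strand and had no UMI in these classes.

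Slc4a10, a sodium-coupled bicarbonate carrier that brings bicarbonate into choroid plexus cells, was the most abundant member. Dural border-like cells had 3439.7 and 2267 CPM, and arachnoid barrier-like cells had 1881 and 1176 CPM. Inner arachnoid-like cells had 129.7 and 125 CPM, pial-like cells 115 and 119 CPM, mural-like cells 119.5 and 70.6 CPM and endothelial-like cells 91.1 and 68.4 CPM. The border macrophage-like cells had 78.0 and 70.6 CPM, so the 4 lower classes lay close to the level found in cells that are not known to use the gene. After thinning, Slc4a10 UMIs were found in 95.1% and 85.7% of dural border-like cells, whose median depths were 2258.5 and 2157.5 UMIs (exact 95% intervals 92.5 to 97.0% and 80.1 to 90.2%), against 7.69% and 8.17% of border macrophage-like cells with median depths of 1452 and 1213 UMIs.

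Slc4a4, an electrogenic sodium-bicarbonate cotransporter, was the most even member across the layers. It had 515 and 611 CPM in arachnoid barrier-like cells, 484 and 427 CPM in inner arachnoid-like cells, 383 and 394 CPM in dural border-like cells and 228 and 202 CPM in pial-like cells. The libraries of neighbouring layers in this order did not overlap. Endothelial-like cells had 46.9 and 46.7 CPM and mural-like cells 21.7 and 98.8 CPM, against 46.9 and 48.2 CPM in border macrophage-like cells. With all kept cells, neither vascular class was thus above background in both libraries. Without the shared barcodes endothelial-like cells had 63.0 and 70.5 CPM, which was above that background in both libraries. The endothelial-like class was uneven in this gene. A cluster of 80 and 84 cells, led by Eln and Gkn3, had 131 to 135 CPM over both libraries. Another, of 187 and 172 cells, had 42.0 to 43.2 CPM.

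Slc4a2, which exchanges chloride for bicarbonate, had 139.6 and 149.5 CPM in arachnoid barrier-like cells and 141 and 96.0 CPM in dural border-like cells. These ranges overlapped. All other classes were lower, with 76.1 and 42.3 CPM in mural-like, 40.7 and 53.5 CPM in pial-like, 51.1 and 31.2 CPM in inner arachnoid-like and 33.5 and 31.7 CPM in endothelial-like cells, and each of them overlapped with its neighbour in this order. Border macrophage-like cells had 21.7 and 27.1 CPM. Slc4a2 overlaps Fastk on the other strand, and Fastk was between 69.7 and 110.1 CPM in every layer.

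Slc12a2, the cotransporter that carries sodium, potassium and chloride into the cell, had 657 and 678 CPM in dural border-like cells and 460 and 474 CPM in arachnoid barrier-like cells. Mural-like cells had 249.9 and 183 CPM and inner arachnoid-like cells 173 and 232 CPM, which overlapped. Endothelial-like cells had 68.3 and 41.7 CPM and pial-like cells 47.9 and 57.6 CPM, near the 52.7 and 50.2 CPM of border macrophage-like cells. Inner arachnoid-like and pial-like cells therefore differed from each other in this gene, with no overlap between their libraries. Without the shared barcodes endothelial-like cells had 84.6 and 60.5 CPM, above the border macrophage-like level in both libraries. Mural-like cells then had 303 and 255 CPM.

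Atp1b1, the beta subunit that brings the sodium-potassium pump to the membrane, had 1492 and 2039 CPM in dural border-like cells and 1163 and 1117 CPM in arachnoid barrier-like cells. Mural-like cells had 196 and 268 CPM. Pial-like cells had 91.0 and 115 CPM, inner arachnoid-like cells 51.1 and 129.1 CPM and endothelial-like cells 58.9 and 76.7 CPM, all overlapping with the next in this order. Border macrophage-like cells had 44.8 and 67.3 CPM. After thinning, 71.9% and 77.3% of dural border-like cells had an Atp1b1 UMI, against 7.16% and 6.97% of border macrophage-like cells.

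**Figure D2:**
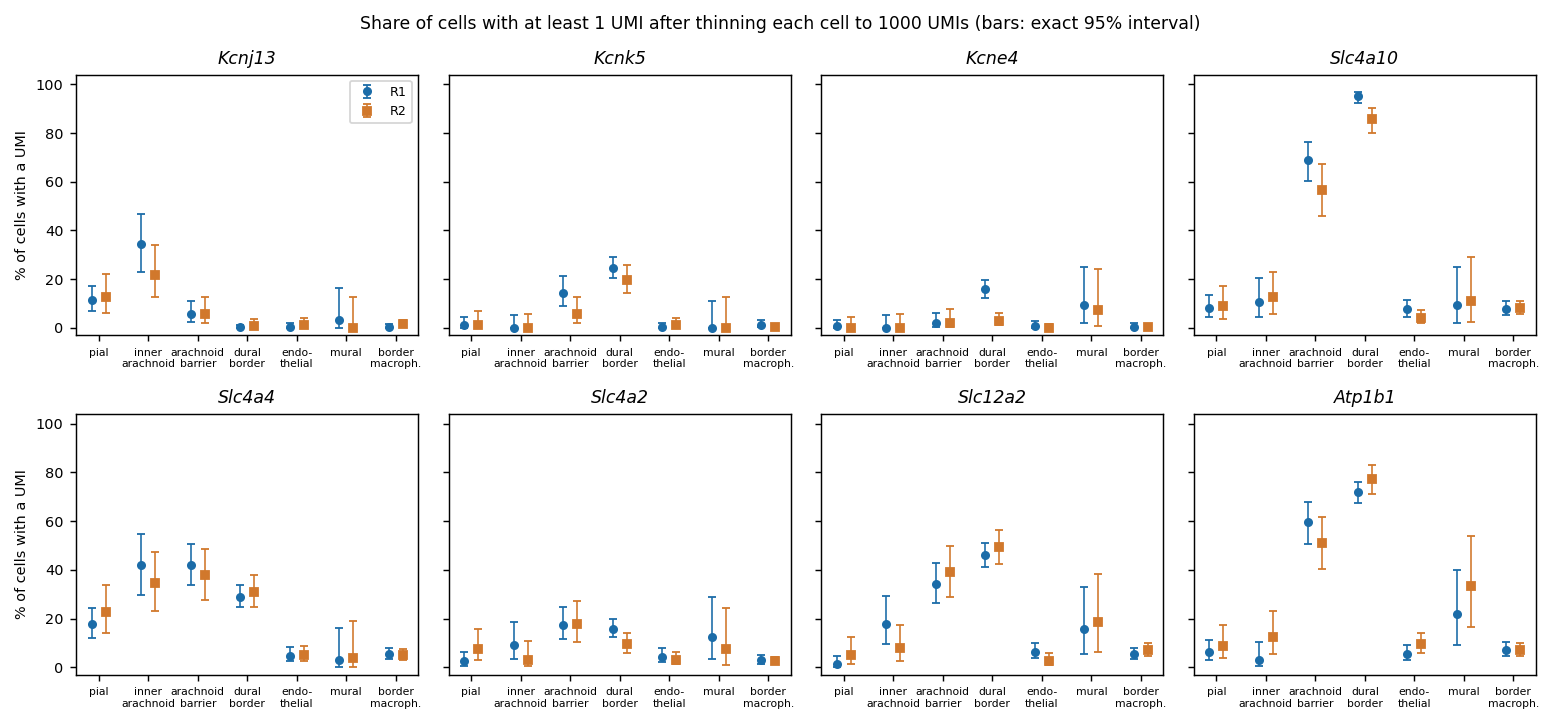
Share of cells with at least 1 UMI of each gene (y axis, percent) by class (x axis) after each cell was thinned to 1000 UMIs; circles are R1, squares R2, bars exact 95% Clopper-Pearson intervals for counting error only. The shares for Slc4a10 are 95.1% and 85.7% in dural border-like cells, against 7.69% and 8.17% in border macrophage-like cells.

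On summed counts, each layer was tested against the other 3, averaged on the log scale, with edgeR's quasi-likelihood test, library as a block, and Benjamini-Hochberg adjustment over 7311 genes. The other side of a log2 fold change is thus a geometric mean. All 26 calls of these 4 comparisons had the same sign in each library alone, as had the 16 calls against or between vascular classes, with 42 in all. The calls were made on these same 2 libraries, so the shared sign adds no separate support.

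In dural border-like cells most members were higher. Of the 8 members, 6 were higher and 1 was lower there, beside 12.9% higher and 9.25% lower among all genes tested (22.1% in either direction), and the members' median log2 fold change was 2.32, against 0.011 for all genes. Kcne4 was higher by 3.49 ± 0.31 on the log2 scale (SE, adjusted p = 1.25e-13), Slc4a10 by 3.17 ± 0.13 (adjusted p = 6.26e-26), Kcnk5 by 3.14 ± 0.22 (adjusted p = 1.64e-17), and Atp1b1 by 2.83 ± 0.14 (adjusted p = 9.62e-23). Slc12a2 was higher by 1.80 ± 0.14 (adjusted p = 5.59e-16) and Slc4a2 by 0.75 ± 0.20 (adjusted p = 0.00267). Kcnj13 was lower, at -4.40 ± 0.29 (adjusted p = 2.1e-18), and Slc4a4 had -0.14 ± 0.13 (adjusted p = 0.524). Slc4a2 lost its call with DESeq2's Wald test (adjusted p = 0.367) and after thinning (adjusted p = 0.114).

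Pial-like cells had Kcnj13 higher and every other member lower: 1 of 8 was higher and 7 were lower, beside 10.2% higher and 7.51% lower among all genes (17.7% in either direction). Kcnj13 was higher by 1.67 ± 0.22 on the log2 scale (adjusted p = 1.02e-08). The 7 lower members ran from Slc4a2 at -0.95 ± 0.29 (adjusted p = 0.0146) and Slc4a4 at -1.04 ± 0.16 (adjusted p = 1e-06) to Slc12a2 at -2.87 ± 0.22 (adjusted p = 1.21e-15) and Kcne4 at -3.32 ± 0.79 (adjusted p = 0.00103). Slc4a10 had -2.79 ± 0.20 and Atp1b1 -2.40 ± 0.22. Without the library block the call on Kcne4 was lost (adjusted p = 0.134), and 5 of 8 members passed at a clustering resolution of 0.5.

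Inner arachnoid-like cells had 2 of 8 members higher and 3 lower, beside 8.49% higher and 7.25% lower among all genes (15.7% in either direction). Kcnj13 was higher by 3.49 ± 0.19 on the log2 scale (adjusted p = 2.8e-21) and Slc4a4 by 0.67 ± 0.15 (adjusted p = 0.000755). Kcnk5 had -2.42 ± 0.54 (adjusted p = 0.000616), Atp1b1 -2.42 ± 0.24 (adjusted p = 4.14e-12) and Slc4a10 -2.30 ± 0.21 (adjusted p = 4.6e-13), all lower. Slc12a2 had -0.01 ± 0.25, Slc4a2 -0.81 ± 0.33 and Kcne4 -1.49 ± 0.82, with adjusted p of 0.993, 0.0937 and 0.246. Of the choroid plexus list, Folr1, Otx2, Prlr, Sostdc1 and Clic6 were at 0 in these cells in both libraries, Ttr had 3.93 and 4.45 CPM, Kl 15.7 and 4.45 CPM and Ecrg4 35.4 and 75.7 CPM. Kcnj13 was at 389.7 and 401 CPM without the cells that held a neuron or choroid plexus marker UMI.

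Arachnoid barrier-like cells had 6 of 8 members higher and 0 lower, beside 9.22% higher and 5.87% lower among all genes (15.1% in either direction). Kcnk5 was higher by 2.03 ± 0.28 on the log2 scale, Atp1b1 by 1.99 ± 0.15, Slc4a10 by 1.92 ± 0.14, Slc12a2 by 1.08 ± 0.16, Slc4a2 by 1.0 ± 0.23 and Slc4a4 by 0.51 ± 0.14, with adjusted p between 6.12e-16 and 0.00643. Kcnj13 had -0.76 ± 0.29 (adjusted p = 0.069) and Kcne4 1.32 ± 0.47 (adjusted p = 0.0502). These values describe a class of mixed makeup. When the fibroblast-like cells were clustered at a resolution of 0.5 in place of 0.8, 58 of its 259 cells kept the name and 199 joined the dural border-like class, and only 2 of 8 members passed, both in the opposite direction: Kcnj13 at 1.34 (adjusted p = 0.0258) and Slc4a10 at -1.43 (adjusted p = 0.0151).

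**Figure D3:**
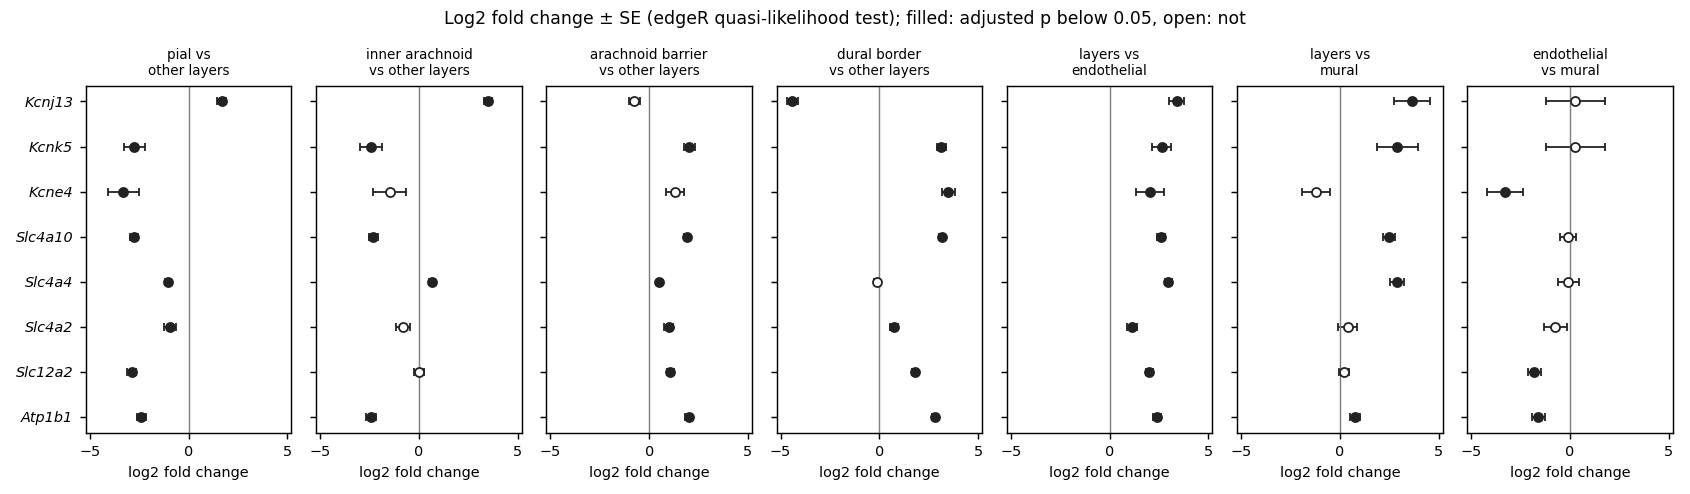
Log2 fold change of each gene (x axis) with its standard error in the 7 comparisons, the class named first over the class named second; filled points have an adjusted p below 0.05 (edgeR). Kcnj13 lies at 3.49 in inner arachnoid-like cells and at -4.40 in dural border-like cells.

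The 58 cells, rich in Dpp4, and the remaining cells of the class were therefore described apart. Dpp4 was at 1091 and 1095 CPM in the 58 cells and at 107 and 239 CPM in the remaining ones, and the dural border gene Slc47a1 was at 0 and 24.9 CPM in the 58 cells and at 1264 and 1162 CPM in the remaining ones. Slc4a10 had 176 and 99.6 CPM in the Dpp4-rich cells, against 2169 and 1391 CPM in the remaining cells, and the exact Poisson intervals for counting error did not overlap in either library. Atp1b1 had 88.0 and 199 CPM in the Dpp4-rich cells, against 1344 and 1301 CPM in the remaining cells. Kcnj13 ran the other way, with 370 and 124 CPM in the Dpp4-rich cells, against 5.93 and 39.9 CPM in the remaining cells. It rested on 21 and 5 UMIs, and in R2 the intervals overlapped (40.4 to 290.5 CPM against 17.2 to 78.6 CPM). Slc4a4 was present in both kinds of cells, with 387 and 747 CPM in the Dpp4-rich cells, against 537 and 583 CPM in the remaining cells. So was Slc12a2, with 317 and 249 CPM in the Dpp4-rich cells, against 484 and 519 CPM in the remaining cells. The split was chosen after the values were seen and carries no test.

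**Figure D4:**
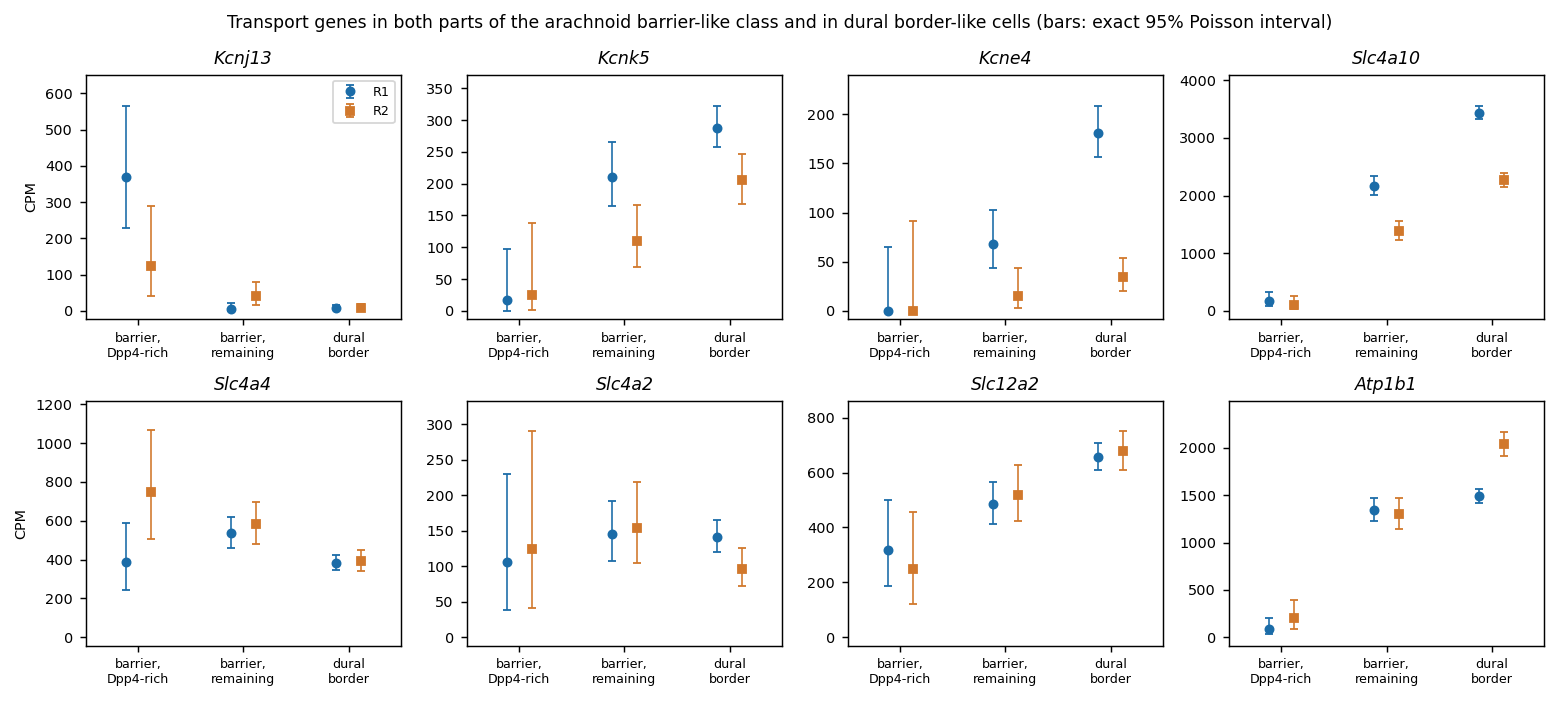
CPM of each gene (y axis, linear) in the Dpp4-rich cells and the remaining cells of the arachnoid barrier-like class and in dural border-like cells (x axis); circles are R1, squares R2, bars exact 95% Poisson intervals for counting error only. Slc4a10 is at 176 and 99.6 CPM in the Dpp4-rich cells and at 2169 and 1391 CPM in the remaining cells.

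Against endothelial-like cells, the 4 layers with equal weight were higher in 8 of 8 members, beside 22.1% higher and 29.2% lower among 9238 genes (51.3% in either direction), so calls were frequent in this comparison. The differences ran from Slc4a2 at 1.15 ± 0.26 and Slc12a2 at 2.02 ± 0.19 on the log2 scale to Slc4a4 at 2.96 ± 0.17 and Kcnj13 at 3.38 ± 0.39, with adjusted p between 8.67e-34 and 0.00974. Slc4a4 differed with the smallest adjusted p, and its 4 layers all lay above both endothelial libraries. Kcnj13 in dural border-like cells and Slc4a10 in pial-like cells were near the endothelial level, so these averages do not hold for every layer. Without the library block the call on Kcne4 was lost (adjusted p = 0.0722). Without the shared barcodes 8 of 8 members passed, and the endothelial levels were then higher, with 119 and 103 CPM of Slc4a10 and 63.0 and 70.5 CPM of Slc4a4.

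Against mural-like cells, 5 of 8 members were higher in the layers, beside 8.45% higher and 11.6% lower among all genes (20.0% in either direction). Kcnj13 had 3.65 ± 0.91 (adjusted p = 0.00119), Kcnk5 2.91 ± 1.05 (adjusted p = 0.0354), Slc4a4 2.88 ± 0.35 (adjusted p = 1.32e-11), Slc4a10 2.47 ± 0.31 (adjusted p = 2.48e-11) and Atp1b1 0.78 ± 0.26 (adjusted p = 0.0244). Slc4a2 had 0.41 ± 0.48, Slc12a2 0.21 ± 0.27 and Kcne4 -1.23 ± 0.71, none of which passed. The mural-like class held 54 cells per library, and DESeq2 called 2 of 8 members, with adjusted p of 0.0602 for Kcnj13, 0.155 for Kcnk5 and 0.096 for Atp1b1. Without the shared barcodes Kcnk5 had an adjusted p of 0.0768.

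Endothelial-like cells were lower than mural-like cells in 3 of 8 members and higher in 0, beside 8.37% higher and 5.69% lower among all genes (14.1% in either direction). Kcne4 had -3.29 ± 0.90 (adjusted p = 0.00464), Slc12a2 -1.81 ± 0.34 (adjusted p = 1.03e-05) and Atp1b1 -1.60 ± 0.34 (adjusted p = 9.86e-05). The other 5 had values between -0.74 and 0.27 with adjusted p of at least 0.468. Without the library block the call on Kcne4 was lost (adjusted p = 0.0795). This call rested on 5 and 0 UMIs in endothelial-like cells and 5 and 2 UMIs in mural-like cells.

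The same layers differed in other ion transport genes, taken from a list of 131 genes in 11 groups of which 129 were in the files and 48 were tested among the layers. In dural border-like cells 18 of the 48 were higher and 11 lower (12.9% and 9.25% among all genes). In pial-like cells 9 were higher and 12 lower (10.2% and 7.51%), in inner arachnoid-like cells 11 and 14 (8.49% and 7.25%) and in arachnoid barrier-like cells 12 and 7 (9.22% and 5.87%). The median log2 fold changes of the 48 were 0.23, -0.11, -0.32 and 0.30 in this order, where the medians of all genes were 0.011, 0.005, -0.013 and 0.008.

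Most genes of the sodium-potassium pump outside the members ran opposite to Atp1b1. Of 6 tested pump subunits and FXYD regulators, 1 was higher and 5 were lower in dural border-like cells (12.9% and 9.25% among all genes). In arachnoid barrier-like cells 1 was higher and 4 were lower (9.22% and 5.87%). In inner arachnoid-like cells 4 were higher and 1 was lower (8.49% and 7.25%), and in pial-like cells 5 and 1 (10.2% and 7.51%). Atp1b2, a beta subunit known from astrocytes, had 558 and 419.7 CPM in pial-like cells, 377 and 254 CPM in inner arachnoid-like, 25.4 and 33.2 CPM in arachnoid barrier-like and 50.8 and 33.9 CPM in dural border-like cells. It was higher in pial-like cells by 2.81 ± 0.16 on the log2 scale (adjusted p = 1.72e-20), as was Fxyd1, a small regulator of the pump, by 2.26 ± 0.20 (adjusted p = 1.04e-13). The astrocyte list had a summed level of 1406 and 1275 CPM in pial-like cells and 411 and 324 CPM in dural border-like cells, of which Slc1a3 alone gave 1128 and 1016 CPM in pial-like cells, while Aqp4 gave 9.58 and 20.6 CPM and Gfap 43.1 and 69.9 CPM; their part in these values was not tested.

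**Figure D5:**
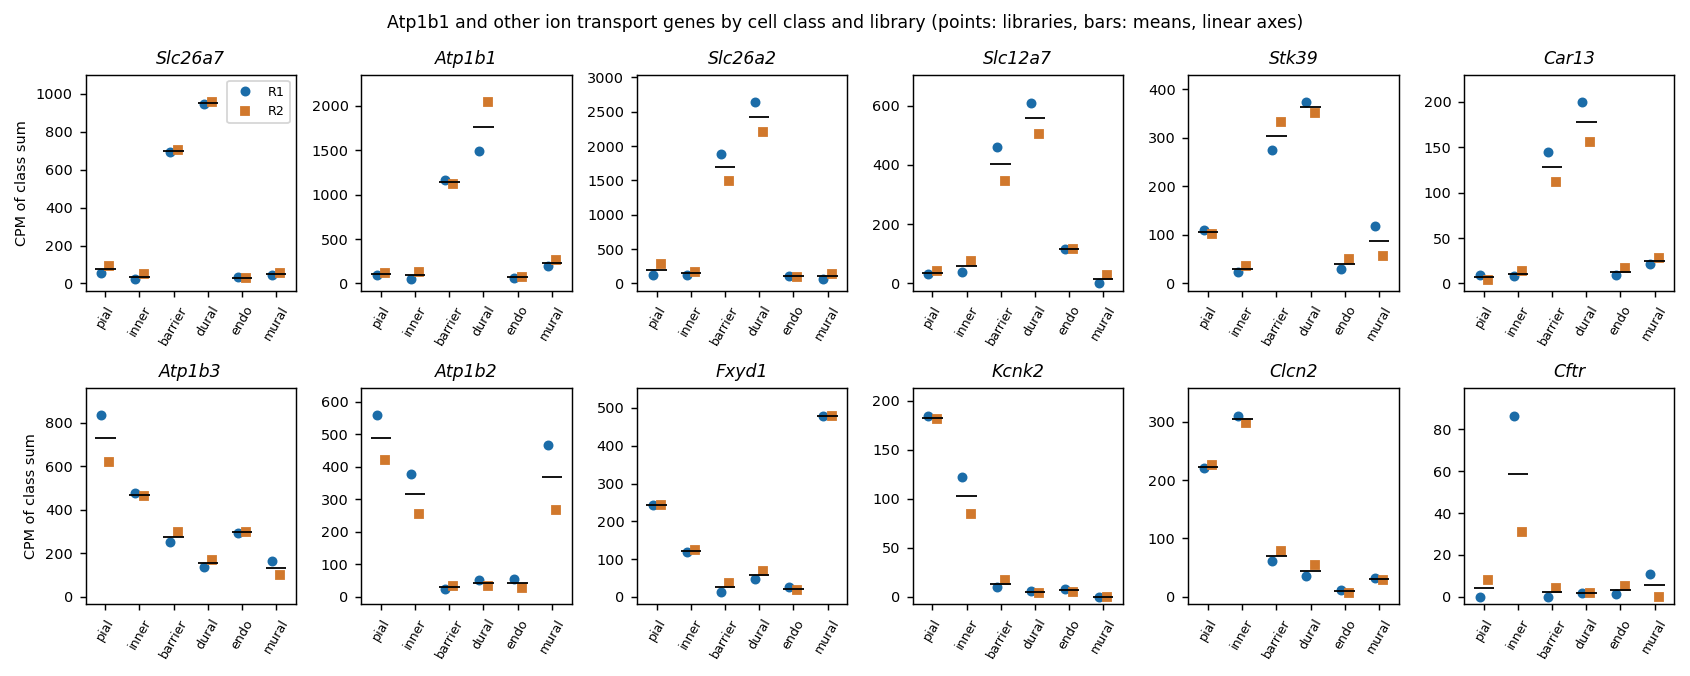
CPM of Atp1b1 and other ion transport genes (y axis, linear, a scale per gene) by cell class (x axis); circles are R1, squares R2 and bars their mean. The upper row holds genes that were high in the dural border-like class, such as Slc26a7 at 947 and 955 CPM, and the lower row genes that were higher in pial-like or inner arachnoid-like cells than in both outer layers, such as Clcn2 at 311 and 298 CPM in inner arachnoid-like cells.

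Of 6 tested bicarbonate carriers and chloride exchangers outside the members, 4 were higher and 0 lower in dural border-like cells. Among all genes 12.9% were higher and 9.25% lower there. In arachnoid barrier-like cells 2 were higher and 0 lower (9.22% and 5.87% among all genes). In inner arachnoid-like cells 1 was higher and 3 were lower (8.49% and 7.25%), and in pial-like cells 0 and 4 (10.2% and 7.51%). Slc26a2, a sulfate carrier of the anion exchanger family, had 2636 and 2207 CPM in dural border-like cells and 125 and 279.8 CPM in pial-like cells. Slc26a7, an anion exchanger of stomach and kidney, had 947 and 955 CPM in dural border-like cells and was higher there by 2.80 ± 0.15 on the log2 scale (adjusted p = 1.79e-21). Within the arachnoid barrier-like class it had 123 and 49.8 CPM in the Dpp4-rich cells, against 786 and 838 CPM in the remaining cells.

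Of 3 tested carbonic anhydrases, which turn carbon dioxide and water into bicarbonate, 2 were higher and 0 lower in dural border-like cells. Among all genes 12.9% were higher and 9.25% lower there. Car13 had 199.5 and 156 CPM in dural border-like cells and 9.58 and 4.11 CPM in pial-like cells, a log2 fold change of 2.86 ± 0.24 for dural border-like cells against the other layers (adjusted p = 9.55e-15). Slc12a7, which lets potassium and chloride out of the cell, was higher there by 2.42 ± 0.16 (adjusted p = 3.34e-18), and Stk39, a kinase that activates Slc12a2, by 1.72 ± 0.16 (adjusted p = 7.97e-13). Of the 8 tested cotransporters and kinases, 3 were higher and 1 was lower in dural border-like cells (12.9% and 9.25% among all genes). In inner arachnoid-like cells 1 was higher and 4 were lower (8.49% and 7.25%). Of 6 tested sodium-proton exchangers and scaffolds, 1 was higher and 2 were lower in dural border-like cells (12.9% and 9.25%). The higher one was Slc9a2, by 1.69 ± 0.16 (adjusted p = 1.31e-12).

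Of 10 tested chloride channels, 3 were higher and 3 lower in inner arachnoid-like cells (8.49% and 7.25% among all genes). In pial-like cells 1 was higher and 2 were lower (10.2% and 7.51%). In arachnoid barrier-like cells 2 were higher and 1 was lower (9.22% and 5.87%). In dural border-like cells 4 were higher and 1 was lower (12.9% and 9.25%). With 10 genes, several of these counts lay near the shares of all genes. Kcnk2 and Kcnj2, the inward rectifier and two-pore potassium channels of the list that were tested among the layers, passed in every layer, in opposite directions. Kcnk2, a leak channel opened by stretch, had 184 and 181 CPM in pial-like cells and 122 and 84.6 CPM in inner arachnoid-like cells, against 5.54 and 3.77 CPM in dural border-like cells. The chloride channel Clcn2 had 311 and 298 CPM in inner arachnoid-like cells and 35.1 and 54.6 CPM in dural border-like cells, and was higher in the inner arachnoid-like cells by 2.14 ± 0.19 on the log2 scale (adjusted p = 1.18e-13). Cftr, the chloride and bicarbonate channel mutated in cystic fibrosis, had 86.5 and 31.2 CPM in inner arachnoid-like cells and at most 8.23 CPM in either library of the other layers (log2 fold change 5.03 ± 0.70, adjusted p = 9.77e-08). Kcnj2, an inward rectifier, was high in the outer layers, with 126 and 33.9 CPM in dural border-like cells, and like Kcne4 it was higher in R1 than in R2.

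In the vascular classes other ion transport genes were high. Car4, a carbonic anhydrase on the surface of brain endothelium, averaged 2.29 and 3.00 CPM over the layers, against 530.3 and 475 CPM in endothelial-like cells. Kcnj8, the pore of a potassium channel of pericytes and smooth muscle, averaged 1.23 and 2.08 CPM over the layers, against 337 and 212 CPM in mural-like cells. The anion exchanger Slc4a3 had 217 and 339 CPM in mural-like cells, where Slc4a2 had 76.1 and 42.3 CPM. Among 64 tested genes of the list, 22 were higher and 16 lower in the layers than in endothelial-like cells, beside 22.1% higher and 29.2% lower among all genes. Against mural-like cells 14 were higher and 16 lower, beside 8.45% and 11.6%.

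The genes most like each member were found by Pearson's r of log2(CPM + 1) over 18 points (9 named classes in 2 libraries) among 7031 genes. The points share libraries and cells of very different kinds, so r is a description. Kcnj13 was most like Efnb3 (r = 0.952), Bmp7 (r = 0.951) and Ranbp3l (r = 0.910). Slc4a10 was most like Slc23a2 (r = 0.987), Igfbp5 (r = 0.986) and Slc5a6 (r = 0.980), Atp1b1 most like Ccn3 (r = 0.975), Rspo3 (r = 0.970) and Tnfrsf11b (r = 0.969), and Slc4a4 most like Abca2 (r = 0.954), Sema3d (r = 0.953) and Ikzf2 (r = 0.948). For Kcnk5 the nearest was Gstm5 (r = 0.926), for Slc4a2 Unc5c (r = 0.934), for Slc12a2 Ptprf (r = 0.912) and for Kcne4 Fbxo32 (r = 0.889). Between members r was highest for Slc4a10 with Atp1b1, at 0.935, and lowest for Kcnj13 with Kcne4, at 0.029.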

How the data were processed

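Per the labels, up to 5000 cells per sample were aimed for on the Chromium. The authors deposited whole-number UMI counts with feature and barcode lists (unit: other); Cell Ranger 4.0.0 is named in the file headers and mm10 in the submitters' processing notes. Kept barcodes had 400 genes or more and no more than 10% mitochondrial UMIs. Cells were clustered in scanpy 1.11.5 with igraph 0.11.9 (2000 variable genes, 30 components, 15 neighbours, resolution 1.0, then 0.8 within fibroblast-like cells) and named from marker scores, so names may differ from the study's. No doublet caller was run. Counts summed per library and class were tested with edgeR 4.0.16 (TMM, filterByExpr, library as block, adjusted p below 0.05), in fits of 4 layers and of 9 classes with 3 and 8 residual degrees of freedom, and with DESeq2 1.42.0 as an alternative. The block pairs classes that came from the same library preparation. The fits were also run on simulated counts that held no library effect, unlike these data, and that run is not used as support. Thinning left out cells under 1000 UMIs. Intervals cover counting error only. Named genes were the members and, per comparison and list group, up to 2 passing genes of largest change that reached 50 CPM in the higher class. Some listed genes that meet this rule are not reported here. Members, markers and lists were chosen with earlier results of these data known.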

Additional observations from a re-analysis of the deposited data

How the results depend on the processing

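Of 42 called member results, 24 kept their call in every refit with a test, and over all such refits 438 of 484 kept it, 42 lost it and 4 reversed. The arachnoid barrier-like results reversed at a clustering resolution of 0.5: Slc4a10 to -1.43, Kcnj13 (not called at first) to 1.34, Atp1b1 to -1.08 and Kcnk5 to -0.77; the class is then much smaller, and Atp1b1 against mural-like cells came to -0.084 and Slc12a2 to -0.066. The other reversals were of values near 0 or on few UMIs: Slc12a2 in inner arachnoid-like cells had 0.004 (size factors), 0.004 (DESeq2), 0.005 (no replicate block), 0.13 (5% mitochondrial), 0.14 (1% Malat1), 0.40 (without cells with a neuron or choroid plexus marker) and 0.22 (resolution 0.5), and Slc4a4 in dural border-like cells 0.043 (resolution 0.5). Against mural-like cells Slc12a2 had -0.31 (thinned) and -0.28 (without marker cells). Between endothelial-like and mural-like cells Kcnj13 had -2.77 (5% mitochondrial), -0.19 (1% Malat1) and -0.74 (thinned), Slc4a4 0.28 (1% Malat1), 0.41 (thinned), 0.004 (without the 5% of cells with most UMIs) and 0.09 (without shared barcodes), Slc4a10 0.14 (1% Malat1) and 0.046 (without shared barcodes), and Kcnk5 -1.30 (without marker cells).

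Counts of called genes that moved by over 1.5 times are given for pial-like, inner arachnoid-like, arachnoid barrier-like and dural border-like cells, in this order where all are listed. DESeq2 gave 694, 536, 483 and 728 (edgeR 1295, 1151, 1103 and 1616); thinning, which leaves fewer UMIs, gave 608, 401, 469 and 731, and for the layers against endothelial-like, against mural-like, and endothelial-like against mural-like cells 2221, 733 and 632. Cells without a neuron or choroid plexus marker UMI gave 649, 733, 454 and 820. At most 5% mitochondrial UMIs gave 857 (pial-like), 702 (arachnoid barrier-like), 1051 (dural border-like) and 1121 (layers against mural-like). Resolution 0.5 gave 731 (inner arachnoid-like) and 374 (arachnoid barrier-like). Numbered clusters among the other layers gave 2290 (pial-like), 2071 (arachnoid barrier-like) and 3136 (dural border-like). Members called against mural-like cells were 2, against 5, with DESeq2, with 5% mitochondrial UMIs and after thinning, and 3 without the cells with most UMIs or without marker cells; at resolution 0.5 the counts were 5 in pial-like and 2 in arachnoid barrier-like cells. Without the replicate block 3 calls were lost, all on Kcne4, and no other call of a member. Beyond what a value's construction shows, the cause was not tested. Depth limits Kcne4 in R2 (36 UMIs) and every member in mural-like cells (54 cells per library).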

Other observations

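A cluster of 597 cells (182 in R1 and 415 in R2) with little of the nuclear RNA Malat1 took no layer name, although its leading genes were Ptgds, Nnat and Ppp1r1a. Its Kcnj13 level was 169 and 102 CPM, close to that of pial-like cells. Slc4a10 had 385 and 354 CPM there and Atp1b1 216.5 and 325 CPM, above the border macrophage-like level and below that of the outer layers. A second Malat1-poor cluster of 936 cells had 1211 and 1025 CPM of Slc4a10, 966 and 1091 CPM of Atp1b1 and 10.1 and 31.1 CPM of Kcnj13.

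Among the shared barcodes, 57 endothelial-like cells of R1 formed a cluster of their own with their 57 partners in R2. Slc4a10 had 5.68 and 0 CPM and Slc4a4 0 and 0 CPM in this cluster, whereas in a further endothelial-like cluster, with 187 and 172 cells, Slc4a10 had 90.7 and 99.7 CPM. The cluster of shared barcodes thus lay below the 78.0 and 70.6 CPM of border macrophage-like cells of the same libraries.

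The libraries differed in their sex-linked RNA. Xist had 275 CPM in R1 and 1.75 CPM in R2, and 4 Y-linked genes together had 218 and 248.9 CPM. In dural border-like cells of R1, Kcne4 had 118 CPM in 108 cells with a Xist UMI and no Y-linked UMI (exact 95% Poisson interval 72.3 to 183 CPM) and 211 CPM in 237 cells with a Y-linked UMI and no Xist UMI (178 to 248 CPM). In R2 the 137 cells with a Y-linked UMI and no Xist UMI had 35.8 CPM (19.1 to 61.3 CPM). R1 was thus also above R2 among cells with Y-linked RNA alone. These groups of cells were chosen after the data were seen, and the part of sex, animal or preparation in the level of Kcne4 was not tested.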
